A study of Mus musculus with 24 samples.

Results

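The galectin genes Lgals1, Lgals3, Lgals8 and Lgals9, together with Lgals3bp, which encodes a galectin-binding glycoprotein, were followed in microglia sorted from retinas of DBA/2J mice, an inbred strain in which iris pigment dispersion raises eye pressure with age and damages the optic nerve. They were chosen by name, as the gene IDs of the per-retina tables that map to these symbols, and are 5 of 47729 gene IDs. The 12-month DBA/2J group had 10 retinas of 5 animals with the labelled genotype Gpnmb-/- Tyrp1b-/-, graded by the labels as mild (3 retinas), moderate (4 retinas) or severe disease (3 retinas). The 6-month DBA/2J group had 1 retina from each of 5 animals of the same genotype, labelled as early disease. The control strain, DBA/2J Gpnmb+, had 9 retinas of 5 animals at 12 months with the genotype Gpnmb+/+ Tyrp1b-/-, so the Tyrp1b alleles are shared by the 3 groups. No group was treated. Cells positive for CD11b and Fcrls and negative for Ly6c were sorted, 100 to 600 per retina, and the RNA of each retina was sequenced as 1 library. No 6-month Gpnmb+ retina is among these samples, so age and disease cannot be told apart between the DBA/2J groups, nor age and genotype between 6-month DBA/2J and Gpnmb+.

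Galectins are lectins without a secretion signal that bind galactose-containing sugar chains. They act outside cells by cross-linking glycoproteins at the surface, and inside cells by binding the sugars that become exposed when an endosome or lysosome breaks. In nervous tissue, galectin-3, the product of Lgals3, is known as a product of activated and phagocytic microglia and is part of the gene program of neurodegenerative (MGnD or disease-associated) microglia. Galectin-1 has a single kind of sugar-binding domain and pairs with itself, galectin-3 joins such a domain to a tail through which it multimerizes, and galectin-8 and galectin-9 carry a pair of linked domains each.

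The libraries differed in depth. In 12-month DBA/2J the totals ran from 1706745 to 20081047 counts, in the 6-month group from 12043862 to 17992997, and in the control strain from 977873 to 14845259. Fewer than 10000 genes had a count in 5 retinas, both eyes of Gpnmb+ animals 1 and 2 and the right eye of Gpnmb+ animal 3, and each level below that rests on the Gpnmb+ group is touched by them. Levels per retina are given as CPM, counts scaled to 1000000 counts of the library total. Taking 3 counts as the limit that 0 counts allow, a gene without reads could have reached 0.149 to 1.76 CPM in a 12-month DBA/2J retina, 0.167 to 0.249 CPM in a 6-month one and 0.202 to 3.07 CPM in a Gpnmb+ one, which covers counting error only. Of 13 microglia markers, 12 or 13 had counts in each of the 24 retinas, while Fcrls itself had counts in 18. The neutrophil genes S100a8, S100a9, Ly6g, Retnlg and Mmp8, the endothelial gene Cldn5 and the astrocyte gene Gfap were at 0 in the 24 retinas. Other genes of the same marker lists had counts, namely Csf3r, a receptor gene of neutrophils that microglia also express, in 24 retinas with medians of 309, 438 and 396 CPM in 12-month DBA/2J, 6-month DBA/2J and Gpnmb+, the endothelial genes Pecam1 and Kdr in 15 and 14 retinas with up to 146 CPM, and the glial genes Glul and Slc1a3 in 24 and 23 retinas. Gpnmb had counts in 0 of 15 DBA/2J retinas and in 1 of 9 Gpnmb+ retinas, so its counts do not check the genotype labels.

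Compared per transcript length, Lgals9 was the most abundant galectin gene, with a median of 194.8 TPM (the deposited length-scaled level) over the 24 retinas and a range of 0 to 369.6. Lgals3bp followed with a median of 135 TPM, and Lgals9 was above it in 18 of 24 retinas. Lgals1 had a median of 39.7 TPM and was below Lgals3bp in 22 retinas. Lgals8 had a median of 31.3 TPM. Lgals1 exceeded Lgals8 in 11 of 24 retinas, so the order of these neighbours is not fixed. It was above Lgals8 in 8 of 10 retinas of 12-month DBA/2J, below it in 5 of 5 of 6-month DBA/2J and above it in 3 of 9 of Gpnmb+. Lgals3 had a median of 0 TPM, the lowest of the 5 genes, with a highest value of 78.5 TPM.

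**Figure D1:**
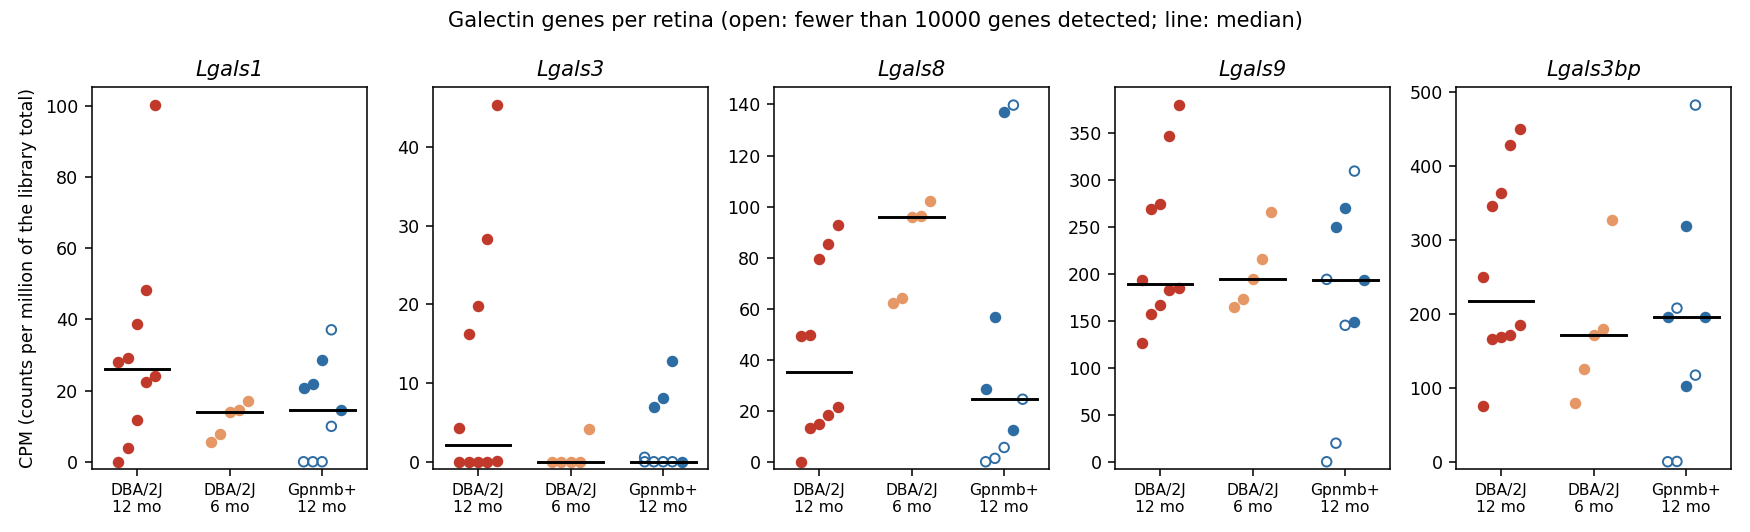
Level of each galectin gene per retina, in CPM of the library total on linear axes that differ between panels. Points are retinas of 12-month DBA/2J, 6-month DBA/2J and Gpnmb+ mice, open points have fewer than 10000 genes with a count, and bars are medians. Lgals3 was at 0 in most retinas, and its highest value, 45.3 CPM, was in a 12-month DBA/2J retina.

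Detection was counted in retinas. As a common limit, 3.07 CPM was used, the level that 3 counts give in the shallowest library. Lgals9 was above it in 10 of 10 retinas of 12-month DBA/2J, 5 of 5 of 6-month DBA/2J and 8 of 9 of Gpnmb+. Lgals3bp was above it in 10, 5 and 7 retinas of the same groups, Lgals8 in 9, 5 and 7, and Lgals1 in 9, 5 and 6. Lgals3 was above it in 5 of 10 retinas of 12-month DBA/2J, 1 of 5 of 6-month DBA/2J and 3 of 9 of Gpnmb+. Without the retinas of fewer than 10000 genes, 4 Gpnmb+ retinas are left, and Lgals3 was above the limit in 3 of 4 of them and the other 4 genes in 4 of 4. The Gpnmb+ retinas without a galectin gene were therefore mostly those with few genes.

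Lgals1 (chromosome 15, 78926725 to 78930465, GRCm38) encodes galectin-1, which is known to dampen inflammatory activation of microglia and T cells. Summed over the eyes and scaled by TMM, it had 46.2, 35.5, 23.8, 32.5 and 16.9 CPM in the 5 animals of 12-month DBA/2J, 13.3, 16.2, 5.30, 13.8 and 7.06 CPM in the 5 animals of 6-month DBA/2J, and 23.1, 0, 17.2, 14.2 and 23.3 CPM in the 5 Gpnmb+ animals. Each 12-month DBA/2J animal was above each 6-month animal, although the lowest of them, 16.9 CPM, stood close to the highest 6-month value, 16.2 CPM. A 12-month DBA/2J value sums 2 eyes and a 6-month value is 1 eye. Single 12-month DBA/2J eyes had as little as 0, 3.76 and 11.7 CPM, so the retinas of these groups overlapped. The mitochondrial share of counts was 2.07 ± 0.65% in 12-month DBA/2J (SD, n = 10 retinas) and 1.15 ± 0.34% in 6-month DBA/2J (SD, n = 5 retinas). In the same comparison 11 of 12 rod photoreceptor markers had log2 fold changes above 0, with a list median of 1.18. Border-associated macrophage markers had 6 of 7 above 0, with a median of 1.14, and monocyte markers 3 of 3 tested, with a median of 0.92. Microglia markers had 7 of 13 above 0, with a median of 0.04. Over all genes tested 6569 of 12977 were above 0, with a median of 0.01. The part of these cell types and of the mitochondrial share in the Lgals1 values was not tested. The 12-month DBA/2J and Gpnmb+ animals overlapped. The log2 fold change was 1.48 ± 0.92 (SE) in 12-month against 6-month DBA/2J, with a 95% interval of -0.45 to 3.40 and an adjusted p of 1.00 by edgeR's quasi-likelihood test. Against Gpnmb+ it was 0.99 ± 0.90 with an interval of -0.91 to 2.90, and for 6-month DBA/2J against Gpnmb+ it was -0.49 ± 0.90. Per retina, Lgals1 had 0 to 100.1 CPM with a median of 26.1 in 12-month DBA/2J, 5.65 to 17.02 with a median of 13.8 in 6-month DBA/2J, and 0 to 37.0 with a median of 14.7 in Gpnmb+. The processed pseudogenes Lgals1-ps1 and Lgals1-ps2, which resemble the Lgals1 transcript, were at 0 counts in the 24 retinas.

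Lgals3 (chromosome 14, 47367751 to 47386160) encodes galectin-3, a lectin that accumulates on damaged lysosomes and that in microglia has been described as a ligand of the receptors Trem2 and Tlr4. It had 6.18, 14.5, 10.04, 0 and 25.6 CPM in the 5 animals of 12-month DBA/2J, 0, 0, 0, 0 and 3.78 CPM in 6-month DBA/2J, and 0, 0, 0.242, 7.85 and 9.33 CPM in Gpnmb+. Reads were thus found in 4 of 5 animals of 12-month DBA/2J, 1 of 5 of 6-month DBA/2J and 3 of 5 of Gpnmb+, and the groups overlapped. Each 12-month DBA/2J animal has 2 retinas and each 6-month animal 1, so detection per animal is not like for like. Per retina, reads were found in 6 of 10, 1 of 5 and 4 of 9 in the same order. The log2 fold change was 3.88 ± 2.25 in 12-month against 6-month DBA/2J, with a 95% interval of -0.85 to 8.61, and 1.69 ± 2.06 against Gpnmb+, with an interval of -2.64 to 6.01. For 6-month DBA/2J against Gpnmb+ it was -2.19 ± 2.09. In 6-month DBA/2J, 4 of 5 animals were at 0, and the fold changes that involve that group are fitted values and not bounds. The adjusted p was 1.00 in each of the 3 comparisons by edgeR's quasi-likelihood test.

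Within 12-month DBA/2J, Lgals3 was divided unevenly between the eyes of an animal. In animal 1 the right eye had 16.3 CPM and the left eye 0 CPM, in animal 2 the right eye had 19.8 CPM and the left eye 0 CPM, and in animal 3 the right eye had 28.3 CPM and the left eye 0.0996 CPM. In animal 5 the left eye had 45.3 CPM and the right eye 4.24 CPM, and in animal 4 both eyes were at 0. The gap within animal 1 exceeded counting error, since its right eye's 81 counts have an exact Poisson interval of 12.9 to 20.2 CPM and 0 counts in its left eye allow up to 0.328 CPM. Reads carry no molecular identifiers in these files, so the intervals cover counting error only. In Gpnmb+, Lgals3 had reads in 4 retinas, with 12.8 and 7.01 CPM in the right and left eyes of animal 5, 8.11 CPM in the 1 retina of animal 4, and 0.568 CPM in the right eye of animal 3, whose left eye was at 0.

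In 12-month DBA/2J, several marker lists and the gene Lyz2 moved with Lgals3 between the eyes. In animals 1, 2, 3 and 5 the eye with more Lgals3 also had the higher summed level of 10 monocyte and recruited-macrophage markers, with 2347 against 703 CPM, 1427 against 467 CPM, 630 against 431 CPM and 839 against 349 CPM. Most of that sum is Lyz2, a lysozyme gene of myeloid cells. Without Lyz2 the other 9 genes summed to 22.3 against 27.8 CPM, 23.1 against 33.4 CPM, 2.44 against 49.9 CPM and 203.8 against 46.0 CPM, so the eye with more Lgals3 was the higher one in animal 5 alone. The monocyte genes Ly6c2 and Chil3 had counts in 1 and 0 of 24 retinas and Ccr2 had medians of 4.01 CPM in 12-month DBA/2J, 9.33 CPM in 6-month DBA/2J and 4.51 CPM in Gpnmb+. The summed level of 9 border-associated macrophage markers was likewise higher in the eye with more Lgals3, with 463 against 26.0 CPM, 321 against 22.4 CPM, 67.1 against 47.1 CPM and 153 against 27.5 CPM in the same animals. The summed microglia markers were lower in that eye, with 18260 against 37603 CPM, 26411 against 35136 CPM, 38504 against 41259 CPM and 22338 against 40042 CPM. Rod photoreceptor markers, a list of 12 genes, were also higher in the eye with more Lgals3, with 5403 against 785 CPM, 2604 against 279 CPM, 1678 against 697 CPM and 3574 against 512 CPM. The summed Muller glia and astrocyte markers were higher in that eye in animals 1, 2 and 5, with 33269 against 15795 CPM, 14960 against 8840 CPM and 8431 against 4394 CPM, and lower in animal 3, with 7332 against 8920 CPM. Most of that sum is Apoe, an apolipoprotein gene of glia that disease-associated microglia also express. Without Apoe the other 9 genes summed to 294 against 244 CPM, 233 against 419 CPM and 375 against 363 CPM in animals 1, 2 and 5, and to 462 against 357 CPM in animal 3. Rlbp1, Aqp4, Clu and Sox9, genes of Muller glia or astrocytes, had counts in 6, 5, 1 and 1 of 24 retinas. The mitochondrial share of counts was higher in that eye in animals 1, 2, 3 and 5, with 2.98% against 1.43%, 2.19% against 1.79%, 1.80% against 1.43% and 2.34% against 1.58%. Over all retinas the monocyte list had 349 to 2347 CPM with 2 to 5 of 10 genes found in 12-month DBA/2J, 50.3 to 376 CPM with 2 to 6 found in 6-month DBA/2J, and 15.3 to 764 CPM with 1 to 6 found in Gpnmb+. The border-associated list had 2.26 to 463 CPM with 1 to 8 of 9 genes found, 6.15 to 141 CPM with 2 to 8 found, and 0 to 160 CPM with 0 to 6 found in the same groups. Lgals1 was also higher in that eye in animals 1, 2 and 5, and not in animal 3. Over all retinas the rod list had 279 to 5403 CPM with 7 to 12 of 12 genes found in 12-month DBA/2J, 219 to 2394 CPM with 11 or 12 found in 6-month DBA/2J, and 229 to 18553 CPM with 6 to 12 found in Gpnmb+. Gpnmb+ animal 5 had more Lgals3 in its right eye. That eye had the lower monocyte list (310 against 764 CPM), Lyz2 (281 against 730 CPM) and rod list (357 against 558 CPM). Its border-associated list was higher (73.6 against 41.0 CPM). In Gpnmb+ animal 3 the right eye, with 0.568 CPM of Lgals3, had the higher monocyte (499 against 271 CPM), border-associated (134 against 74.9 CPM) and rod lists (2466 against 686 CPM). The part of these cells and of RNA quality in the Lgals3 and Lgals1 values was not tested. In bulk RNA, fewer cells of a type and less RNA per cell cannot be told apart.

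Lgals8 (chromosome 13, 12439415 to 12464944) encodes galectin-8, a tandem-repeat lectin that marks ruptured vesicles for autophagy through the receptor Ndp52 in human cells. It had 10.2, 44.2, 70.2, 15.2 and 83.4 CPM in the 5 animals of 12-month DBA/2J, 87.5, 61.0, 90.1, 101.8 and 56.3 CPM in 6-month DBA/2J, and 19.3, 1.00, 66.9, 132.9 and 41.1 CPM in Gpnmb+. The 6-month values lay in a narrow band, while the 12-month groups spread widely and overlapped it. Within 12-month DBA/2J the level followed depth. Retinas of up to 9144724 counts had 0 to 21.3 CPM, and those from 10662148 counts had 49.3 to 92.9 CPM. The 6-month libraries had at least 12043862 counts. In Gpnmb+ the split was less clear, with 139.8 CPM in a retina of 7040408 counts and 28.7 CPM in one of 14004414. The part of depth in these values was not tested. The log2 fold change was -0.83 ± 0.78 in 12-month against 6-month DBA/2J, with a 95% interval of -2.46 to 0.81, and -0.23 ± 0.77 against Gpnmb+, with an interval of -1.85 to 1.398. For 6-month DBA/2J against Gpnmb+ it was 0.60 ± 0.77. Per retina the level reached 139.8 CPM in the right eye of Gpnmb+ animal 3, whose left eye had 12.6 CPM.

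Lgals9 (chromosome 11, 78962974 to 78984946) encodes galectin-9, a tandem-repeat lectin known as a ligand of the inhibitory receptor Tim-3 (Havcr2) and as an interferon-induced gene. It had 294.2, 198.7, 255.6, 243.5 and 135.2 CPM in the 5 animals of 12-month DBA/2J, 157.4, 205.5, 155.0, 194.2 and 241.5 CPM in 6-month DBA/2J, and 331.7, 14.8, 211.0, 262.1 and 162.6 CPM in Gpnmb+. The 3 groups overlapped, and the 1 low animal was Gpnmb+ animal 2, both of whose retinas had fewer than 10000 genes. The log2 fold change was 0.20 ± 0.48 in 12-month DBA/2J against Gpnmb+, with a 95% interval of -0.81 to 1.21, and 0.24 ± 0.48 against 6-month DBA/2J, with an interval of -0.77 to 1.25. For 6-month DBA/2J against Gpnmb+ it was -0.04 ± 0.48. A difference above 1.25 on the log2 scale lies outside both intervals.

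Lgals3bp (chromosome 11, 118392751 to 118402092) encodes a secreted glycoprotein that binds galectins and is known as an interferon-induced gene. It had 191.8, 422.4, 411.7, 161.8 and 201.0 CPM in the 5 animals of 12-month DBA/2J, 155.5, 75.2, 168.5, 124.5 and 296.2 CPM in 6-month DBA/2J, and 73.2, 360.8, 277.8, 99.2 and 185.9 CPM in Gpnmb+. Animals 2 and 3 of 12-month DBA/2J had the highest levels of the 15 animals, and the groups overlapped. The log2 fold change was 0.76 ± 0.44 in 12-month against 6-month DBA/2J, with a 95% interval of -0.17 to 1.69, and 0.48 ± 0.44 against Gpnmb+, with an interval of -0.45 to 1.41. For 6-month DBA/2J against Gpnmb+ it was -0.28 ± 0.44. With each retina in the fit and a random animal effect, the value against Gpnmb+ was 1.61 ± 0.76, with an adjusted p of 0.446 by limma. In Gpnmb+ animal 1 the right eye had 803 counts and the left eye 3 counts, and in Gpnmb+ animal 2 the right eye had 0 CPM and the left eye 482 CPM.

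**Figure D2:**
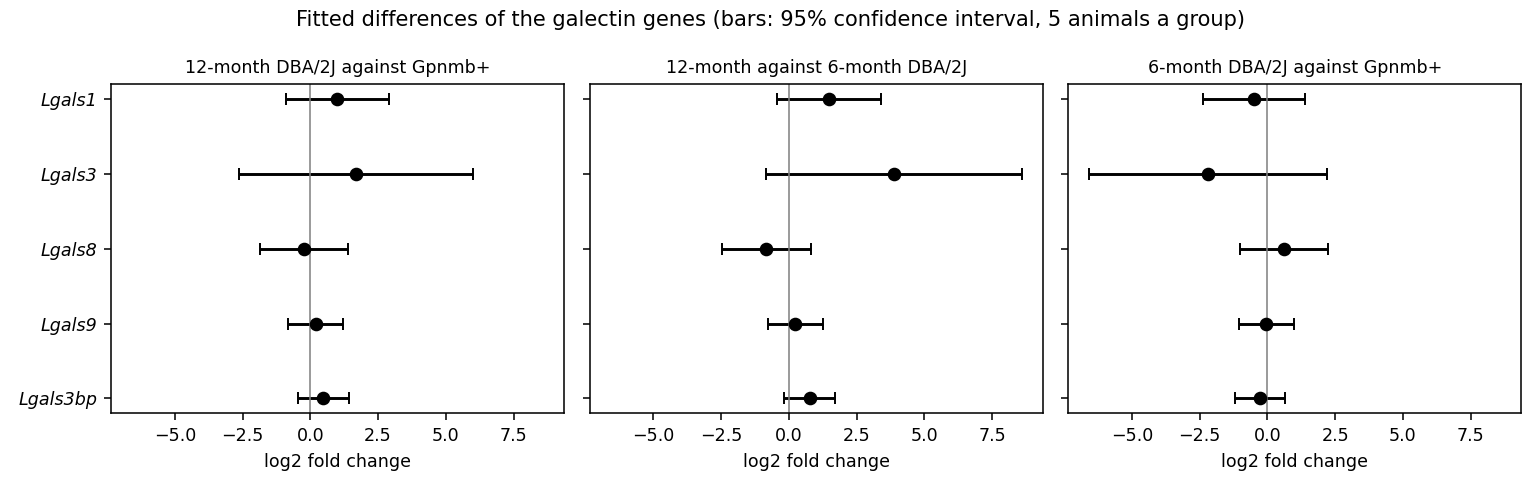
Fitted log2 fold changes of the 5 galectin genes in the 3 comparisons of groups, with 95% confidence intervals from edgeR's fit of 15 animals (5 a group). Each interval includes 0, and the widest are those of Lgals3, from -0.85 to 8.61 in 12-month against 6-month DBA/2J.

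Because both genes are known interferon targets, the reference promoters of Lgals9 and Lgals3bp are shown, with capitals marking matches to interferon-response motifs. The windows run from 250 bases before to 30 bases after the start that RefSeq gives in GRCm38.p6, on the minus strand of chr11:78984895-78985174 and chr11:118401930-118402209.
Lgals9: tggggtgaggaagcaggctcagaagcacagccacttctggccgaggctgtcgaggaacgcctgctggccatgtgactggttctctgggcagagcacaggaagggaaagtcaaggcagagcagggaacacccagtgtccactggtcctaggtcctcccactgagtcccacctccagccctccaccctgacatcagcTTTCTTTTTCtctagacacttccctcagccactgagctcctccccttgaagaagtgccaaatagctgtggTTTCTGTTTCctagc
Lgals3bp: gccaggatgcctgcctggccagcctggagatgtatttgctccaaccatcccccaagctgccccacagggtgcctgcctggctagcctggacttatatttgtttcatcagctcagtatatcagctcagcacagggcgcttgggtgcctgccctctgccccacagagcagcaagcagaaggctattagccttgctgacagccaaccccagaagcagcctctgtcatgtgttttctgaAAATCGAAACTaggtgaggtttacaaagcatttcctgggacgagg
The capitals in Lgals9 match 2 copies of GAAA with any 2 bases between them, read on the opposite strand, at offsets -55 and 15 from the start. This motif, searched on both strands in windows of 300 bases, was in 3.44% of 32851 promoter windows. Counted by gene, it was in 3.99% of 27025 genes with a window and in 7 of the 12 interferon-response genes that have one. The capitals in Lgals3bp match AAA, any 2 bases and then GAAACT at offset -15, a motif chosen after its window had been seen. That motif was in 0.661% of all windows, and by gene in 0.766% of genes with a window and in 5 of the same 12 genes. The 2 motifs can overlap each other, since both contain GAAA. No match to either was found in the Lgals3 and Lgals8 windows, which says only that these letters are not there, and 4 of the 5 genes had a window in the table. A match is a description of the reference sequence and not a site of binding.

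Across the whole table, 0 of 12977 genes (0%) were called in any of the 3 comparisons of groups by edgeR's quasi-likelihood test at an adjusted p of 0.05. The 5 galectin genes passed the filter on low counts, and 0 of 5 were called. In 12-month DBA/2J against Gpnmb+, 675 genes (5.2%) had an unadjusted p under 0.05, and 0 of the 5 galectin genes were among them. The same threshold held 474 genes (3.65%) in 12-month against 6-month DBA/2J and 489 genes (3.77%) in 6-month DBA/2J against Gpnmb+, again with 0 of the 5. DESeq2 called 108, 62 and 57 genes in the 3 comparisons, none a galectin gene. The medians of the 5 log2 fold changes were 0.48, 0.76 and -0.28 in the same order, beside 0.05, 0.01 and 0.03 over all genes tested. Groups without overlap occurred for 1.43% of genes with higher values in 12-month than in 6-month DBA/2J, and Lgals1 was the 1 galectin gene among them. In 12-month DBA/2J against Gpnmb+ 1.12% of genes did not overlap, and 0 of the 5. The 3 comparisons share animals, so their values are set side by side and not combined.

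The grades within 12-month DBA/2J were compared as sums per animal and grade, in which animals 1 and 5 enter with 2 sums each because their eyes differ in grade. Lgals1 had 32.7 and 3.53 CPM in the 2 mild sums, 114.0, 35.1 and 27.7 CPM in the 3 moderate sums, and 12.7 and 23.9 CPM in the 2 severe sums, against 0 to 23.3 CPM in the 5 Gpnmb+ animals. Lgals3 had 0 and 3.98 CPM in the mild sums, 18.5, 14.4 and 43.0 CPM in the moderate sums, and 0 and 10.1 CPM in the severe sums, against 0 to 9.31 CPM in Gpnmb+. For both genes the moderate sums were the only grade to lie wholly above the Gpnmb+ animals. Single retinas overlapped, with 0 to 100.1 CPM of Lgals1 in moderate eyes and 0 to 37.0 CPM in Gpnmb+ eyes. For Lgals3 the ranges were 0 to 45.3 CPM and 0 to 12.8 CPM. Among the sums, moderate values wholly above Gpnmb+ occurred for 2.51% of 15965 genes, and 2 of the 5 galectin genes were among them. In the mild and severe comparisons the shares were 4.12% and 5.68%, with 0 of the 5. The log2 fold change of moderate DBA/2J against Gpnmb+ was 1.93 ± 1.11 for Lgals1 (95% interval -0.40 to 4.25) and 2.86 ± 2.36 for Lgals3 (interval -2.07 to 7.79). The adjusted p was 0.641 for Lgals1 and 0.817 for Lgals3 by edgeR's quasi-likelihood test, and 0% of genes were called in that comparison, with 1353 genes (8.47%) at an unadjusted p under 0.05. In the same comparison 6 of 7 tested monocyte markers had log2 fold changes above 0, with a list median of 2.55, and 8 of 9 border-associated macrophage markers did, with a median of 2.05, beside a median of -0.02 over all genes tested. Of the rod photoreceptor markers 11 of 12 were above 0, with a median of 0.87, and of the Muller glia and astrocyte markers 5 of 7, with a median of 2.21. Of 13 microglia markers 6 were above 0, with a median of -0.24, and at an unadjusted p under 0.05 1 was higher and 3 were lower. The part of these cell types in the Lgals1 and Lgals3 values was not tested.

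Both animals with eyes of different grade had the higher Lgals1 and Lgals3 in the moderate eye. In animal 1 the moderate eye had 100.1 CPM of Lgals1 and the severe eye 11.7 CPM, and in animal 5 the moderate eye had 29.2 CPM and the mild eye 3.76 CPM. The third animal with moderate eyes, animal 2, had 48.3 CPM in its right eye and 0 CPM in its left eye, so eyes of the same grade differed as widely. Lgals8, Lgals9 and Lgals3bp overlapped the Gpnmb+ animals at each grade. Lgals3bp had 158.0 and 162.6 CPM in the mild sums, 188.9, 417.8 and 237.3 CPM in the moderate sums, and 201.0 and 413.5 CPM in the severe sums. Each mild sum was thus below each moderate and severe sum, as for 4.29% of 13394 genes and 1 of the 5 galectin genes. Per retina, without TMM scaling, Lgals3bp had 75.6 to 171.6 CPM in mild and 166.0 to 449.7 CPM in moderate eyes, so mild and moderate retinas overlapped. Its slope per step of grade was 0.46 ± 0.30 on the log2 scale, with a 95% interval of -0.19 to 1.11, and 0.74 ± 0.31 without animal 1. The slopes of the others were 0.30 ± 0.27 for Lgals9, 0.00 ± 0.72 for Lgals1, 0.65 ± 2.51 for Lgals3 and -0.13 ± 0.81 for Lgals8. These fits took the 2 sums of animals 1 and 5 as independent. With the animal as a block the slopes rest on those 2 animals, and were 0.32 ± 0.93 for Lgals3bp, 0.13 ± 0.93 for Lgals9, -0.12 ± 2.83 for Lgals1, -2.27 ± 10.46 for Lgals3 and 2.92 ± 2.30 for Lgals8, so the sign turned for the last 3. None of the 5 had an unadjusted p under 0.05 in the trend, where 1.84% of 13394 genes did.

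**Figure D3:**
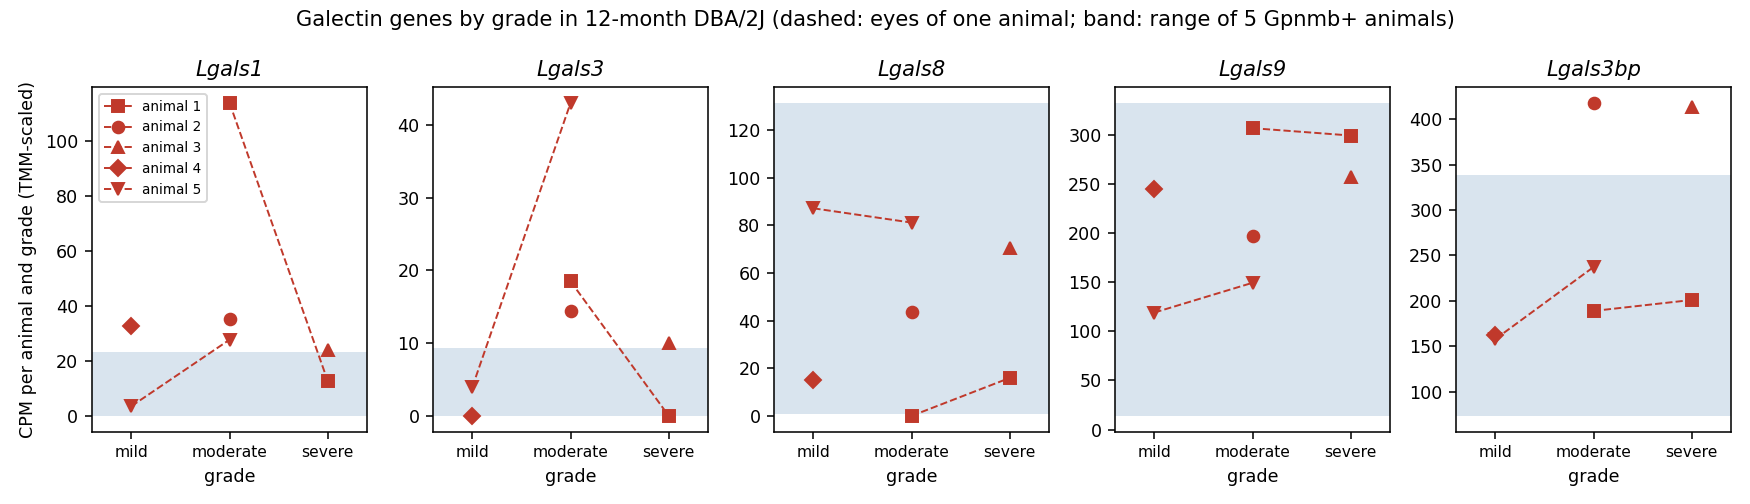
Level of each galectin gene by grade in 12-month DBA/2J, as TMM-scaled CPM per animal and grade on linear axes. Symbols are animals, dashed lines join the eyes of animals 1 and 5, and the band is the range of the 5 Gpnmb+ animals. The moderate sums of Lgals3, 14.4 to 43.0 CPM, lie above the band, which ends at 9.31 CPM. Single retinas, which are not drawn, overlapped, with 0 to 45.3 CPM in moderate and 0 to 12.8 CPM in Gpnmb+ eyes.

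Agreement between the eyes of an animal set a further scale for these differences. Over the 9 animals with both eyes, the median absolute difference of log2(CPM + 1) between eyes was 0.57 for Lgals3bp, 0.67 for Lgals9, 0.78 for Lgals3, 1.05 for Lgals1 and 1.17 for Lgals8, beside 1.12 over all genes tested. The small median of Lgals3 includes 3 animals with 0 counts in both eyes. The largest difference was 8.92 for Lgals3bp, in Gpnmb+ animal 2. The abundant genes Lgals9 and Lgals3bp had the smallest medians of the 5.

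**Figure D4:**
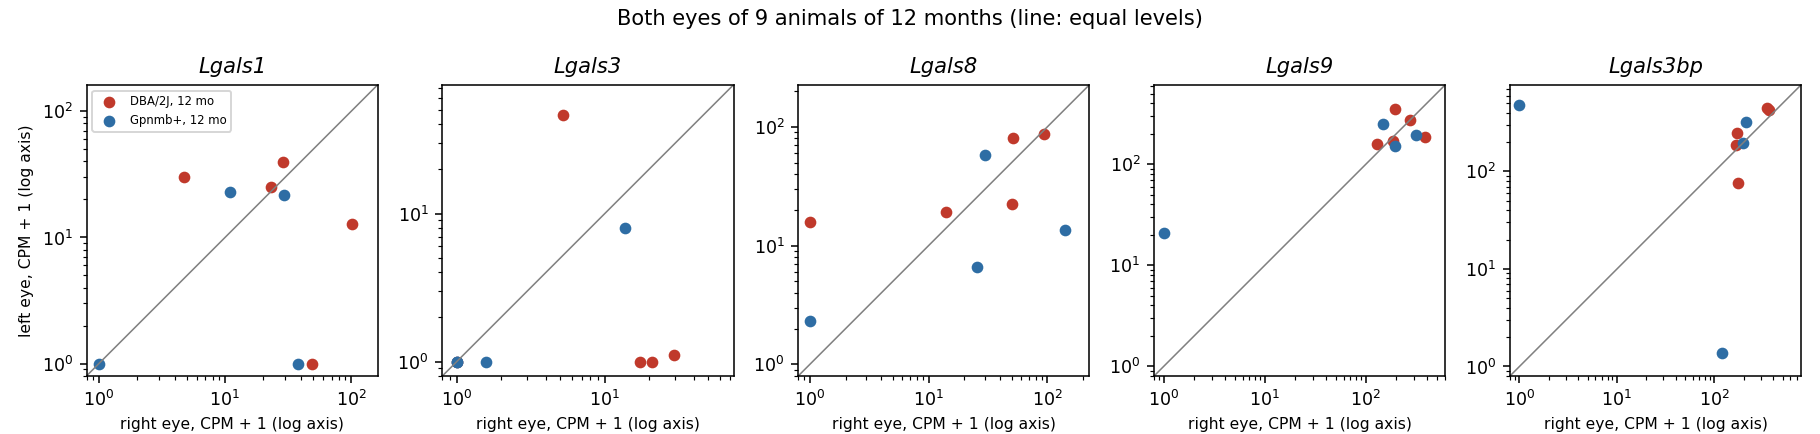
Left against right eye for the 9 animals of 12 months with both eyes, as CPM + 1 on log axes, for 12-month DBA/2J and Gpnmb+ mice. The line marks equal levels, and 3 animals lie on top of each other at 0 counts in both eyes for Lgals3. Lgals9 departs most from the line in Gpnmb+ animal 2 and Lgals3bp in Gpnmb+ animals 1 and 2, and Lgals3 had 0.0996 CPM or less in the lower eye of 3 DBA/2J animals.

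Of the other galectin family genes, Lgals2 and Grifin were at 0 counts in the 24 retinas, and Lgals7 and Lgals12 had 1 count each in all. Lgals4, an intestinal galectin gene, was above 3.07 CPM in 3 of 10 retinas of 12-month DBA/2J, 4 of 5 of 6-month DBA/2J and 1 of 9 of Gpnmb+, with a highest value of 21.0 CPM. Lgalsl, a galectin-like gene without known sugar binding (chromosome 11, 20823576 to 20831056), went the other way, above the limit in 1 of 10, 0 of 5 and 6 of 9 retinas of the same groups. Per animal it averaged 4.92 ± 10.1 CPM in 12-month DBA/2J, 0.0813 ± 0.182 CPM in 6-month DBA/2J and 31.0 ± 33.1 CPM in Gpnmb+ (SD, n = 5 each). The 6-month animals, at up to 0.407 CPM, lay below each Gpnmb+ animal, whose lowest value was 5.31 CPM, a pattern of 0.239% of genes in that direction. A 6-month value is 1 eye, while most Gpnmb+ values sum 2 eyes. Per retina, Lgalsl had 0 to 0.427 CPM in 6-month DBA/2J and 0 to 443.8 CPM in Gpnmb+, so the retinas overlapped. Its adjusted p in that comparison was 0.782 by edgeR's quasi-likelihood test. The highest Lgalsl value, 443.8 CPM, was in the shallowest library, the right eye of Gpnmb+ animal 2, and 2 of the 4 Gpnmb+ retinas with at least 10000 genes were above the limit.

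The glycoproteins that galectins bind were tested as a list of 17 genes in 12-month DBA/2J against Gpnmb+. At an unadjusted p under 0.05, 3 of 16 tested were higher, beside 2.75% of all genes, and 1 was lower, beside 2.45%. Of these, 0 passed the adjustment. Cd63, a tetraspanin of late endosomes, had 336 ± 125 CPM in 12-month DBA/2J and 154.5 ± 69.7 CPM in Gpnmb+ (SD, n = 5 each), a log2 fold change of 1.12 ± 0.36. Lamp1, the main glycoprotein of the lysosomal membrane, had 209.7 ± 77.7 CPM in 12-month DBA/2J and 445.6 ± 192.7 CPM in Gpnmb+, a log2 fold change of -1.09 ± 0.35. Itgb2, the integrin chain that pairs with CD11b, had 507.9 ± 121.4 and 299.1 ± 140.1 CPM in the same groups, and Trem2, a lipid-sensing receptor of microglia, had 1609 ± 410 and 1239 ± 188 CPM. Cd63 and Lamp1 had the smallest p of the list, with adjusted p = 0.567 for both by edgeR's quasi-likelihood test. Against 6-month DBA/2J, Cd63 had a log2 fold change of 1.51 ± 0.36 and Lamp1 of -1.53 ± 0.36, with adjusted p = 0.406 and 0.383. The median log2 fold change of the list against Gpnmb+ was -0.03.

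The enzymes that build or cap galectin ligands had a median log2 fold change of -0.44 over 16 tested genes, with 5 of 16 above 0, beside 0.05 and 52.4% for all genes. At an unadjusted p under 0.05, 1 of 16 was higher, beside 2.75% of all genes, and 1 was lower, beside 2.45%. St3gal6, a sialyltransferase, had 240.4 ± 75.9 CPM in 12-month DBA/2J and 390.9 ± 150.1 CPM in Gpnmb+ (SD, n = 5 each), and St3gal3, another, had 16.6 ± 15.6 and 1.68 ± 1.95 CPM in the same groups. The Gpnmb+ mean of St3gal3 lies within the 0.202 to 3.07 CPM that 0 counts allow in a Gpnmb+ retina. Mgat1, which starts the complex branches of N-glycans, had a log2 fold change of -0.45 ± 0.29, and Mgat4a, a branching enzyme, -0.42 ± 0.29.

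Genes of the response to damaged lysosomes had a median log2 fold change of 0.06 over 16 tested. At an unadjusted p under 0.05, 1 of the 16 was higher, beside 2.75% of all genes, and 0 were lower, beside 2.45%. That gene was Optn, an autophagy receptor, with 10.1 ± 10.2 CPM in 12-month DBA/2J and 0.0757 ± 0.110 CPM in Gpnmb+ (SD, n = 5 each). The Gpnmb+ mean is below the 0.202 to 3.07 CPM that 0 counts allow in a Gpnmb+ retina. Becn1, a starter of autophagy, had a log2 fold change of 0.72 ± 0.46, Lamtor1, a lysosomal anchor of mTORC1, 0.51 ± 0.32, and Vcp, a protein-extracting ATPase, -0.39 ± 0.34. In 12-month against 6-month DBA/2J the list had a median of -0.20 and a range of -1.03 to 0.67, with 4 of 16 genes above 0. The median over all genes was 0.01. At an unadjusted p under 0.05, 0 of the 16 were higher and 1 was lower, beside 3.65% of all genes in either direction. In 12-month DBA/2J against Gpnmb+ the interferon-response list had a median of 0.17 over 18 tested genes. Of these, 1 was higher and 0 were lower at the same threshold, beside the same 2.75% and 2.45% of all genes. Ifi27l2a, an interferon-induced gene, had 62.7 ± 12.2 CPM in 12-month DBA/2J and 7.84 ± 6.56 CPM in Gpnmb+ without overlap, as for 1.12% of all genes in either direction. Its log2 fold change was 3.00 ± 1.19, with an adjusted p of 0.732 by edgeR's quasi-likelihood test. Parp14 had 0.76 ± 0.50, Ifitm3 1.37 ± 1.10 and Rtp4 1.00 ± 0.86 as log2 fold changes. In 12-month against 6-month DBA/2J the interferon list had a median of -0.05, with 0 genes at an unadjusted p under 0.05 in either direction.

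**Figure D5:**
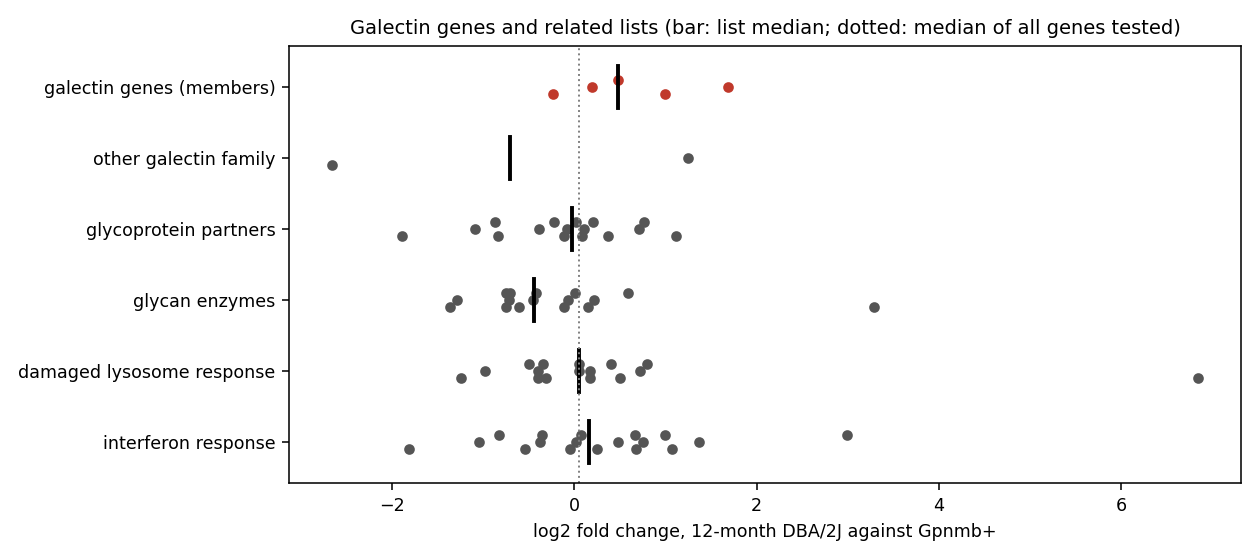
Log2 fold changes of 12-month DBA/2J against Gpnmb+ for the 5 galectin genes, the other galectin family genes tested and the 4 related lists. Points are genes, bars are list medians and the dotted line is the median of all genes tested, 0.05. The glycan enzymes have the lowest median of the 4 lists, -0.44.

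Genes whose log2 CPM over the 15 animals was most like that of each galectin gene were named from about 5336 abundant genes, as a description of shared pattern. For Lgals3 these were Xaf1 (Pearson r = 0.820), Tlr2 (0.747) and Slamf6 (0.742). For Lgals3bp they were Lyst (0.871), Snx27 (0.842) and C5ar1 (0.829). Leaving out the shallow Gpnmb+ animal 2 moved each of these by less than 0.02. For Lgals9 they were Eif2b2 (0.980), Cfap20 (0.977) and Tmed4 (0.967), and without that animal r was 0.829, 0.787 and 0.675. For Lgals1 they were Pdcd1 (0.972), Cox14 (0.968) and Pdcl3 (0.965), with 0.818, 0.776 and 0.790 without it, and for Lgals8 they were Cdc42se2 (0.961), Plxna4 (0.948) and Ints10 (0.947), with 0.931, 0.853 and 0.883. The points share libraries and depth, and the genes were picked for their correlation, so no p is given.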

How the data were processed

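RNA of sorted retinal microglia was sequenced with 1 library per retina, 24 retinas of 15 animals. The authors deposited expected counts per gene, estimated reads that can be fractional, and TPM, scaled by transcript length, per the file headers. Salmon 1.4.0, DESeq2 1.30.1, R 4.0.3 and mm10 stand in the submitters' processing notes, with no role given. How reads shared by similar genes were divided is not given in the sources used here. A deposited table of FPKM values with 24 per-sample columns was not used.

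For each retina the expected counts were rounded, and the eyes of an animal (or its eyes of 1 grade) were added up. Groups, animals, eyes and grades came from the labels. Counts of 91 pairs of retinas of 1 group differed by a chi-square of at least 65 per degree of freedom, and no library was treated as a repeat of another. Genes were tested on the whole table with edgeR 4.0.16 in R 4.3.3 (quasi-likelihood F test, TMM, filterByExpr with min.count 10 and min.total.count 15), with two-sided p adjusted by Benjamini and Hochberg over all genes tested and a threshold of 0.05. The 3 group comparisons shared 1 fit of 15 animals. Mild, moderate and severe DBA/2J were set against Gpnmb+ in 1 fit of 17 sums, and the trend used scores of 0, 1 and 2. Errors of log2 fold changes are standard errors. Those of edgeR are approximate, computed as the absolute log2 fold change divided by the square root of the test's F. The 95% intervals use these errors and a t distribution. Nothing in the labels says more of the animals than their numbers. The scripts were tested on simulated counts. Alternatives were DESeq2 1.42.0, RLE scaling, other filters, each retina as a replicate, a random animal effect (limma 3.58.1), the compared groups alone, leaving out shallow retinas, a block on the animal number, and each animal left out in turn. The Gpnmb+ detection and the correlations without shallow retinas, and the second promoter motif, were chosen after seeing the data. Promoter sequences are from RefSeq (GRCm38.p6), and gene names and coordinates from the GRCm38 annotation, in which 47224 of 47729 IDs matched a symbol.

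Named were the 5 galectin genes, other galectin genes with a count, up to 4 genes with the smallest p of each list in 12-month DBA/2J against Gpnmb+, and the 3 genes most correlated with each galectin gene (average log2 CPM of at least 4). The comparison of marker lists between eyes, with and without Lyz2 and Apoe, was chosen after its values were seen. The galectin genes and the lists were chosen with earlier results of these data known.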

Additional observations from a re-analysis of the deposited data

Results flagged for a closer look

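Lgals3 in 6-month DBA/2J stood out in 1 animal. Animal 5 had 3.78 CPM (TMM-scaled) while the other 4 animals of the group were at 0, so its gap to the others was the whole range of the group. It was 1 of 15 groups examined for such a gap, 5 genes in 3 groups of 5 animals, and the threshold for the gap is one that about 1 in 20 groups of normally distributed values would pass. For a gene at 0 in 4 of 5 animals, any read in the other gives a gap of the whole range, and how often chance gives that was not measured. The retina had 75 counts of Lgals3, 4.17 CPM of its library total, and was the deepest 6-month library with 17992997 counts. No retina of the other 4 animals had a count of Lgals3.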

How the results depend on the processing

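Over 156 settings of the 7 comparisons, 4 or 5 of the galectin genes were tested in each and 0 were called. The smallest adjusted p of any of them was 0.327. In 11 settings a galectin gene had an unadjusted p under 0.05. Lgals3 in 12-month against 6-month DBA/2J was among them with the animal number as a replicate block (log2 fold change 8.67 ± 2.84, adjusted p = 1.00 by edgeR), without 6-month animal 5 (10.59 ± 3.04, adjusted p = 0.783 by edgeR) and with a random animal effect over retinas (4.02 ± 1.72, adjusted p = 0.611 by limma), against 3.88 as reported. Without 6-month animal 5 Lgals3 also had -8.87 ± 2.85 in 6-month DBA/2J against Gpnmb+, and with the block 8.43 ± 3.21 in moderate DBA/2J against Gpnmb+, where 2.86 was reported (adjusted p = 0.976 and 0.962 by edgeR). Lgals1 in 12-month against 6-month DBA/2J was among them with the compared groups alone (1.48 ± 0.53, adjusted p = 0.421 by edgeR), without the retinas of fewer than 10000 genes (log2 fold change 1.49 ± 0.52, adjusted p = 0.371 by edgeR) and without Gpnmb+ animal 2 (1.48 ± 0.53, adjusted p = 0.544 by edgeR). Lgals1 by DESeq2 in moderate DBA/2J against Gpnmb+ and Lgals3bp in 3 settings made up the rest, with 1.61 ± 0.76 in 12-month DBA/2J against Gpnmb+ with a random animal effect (adjusted p = 0.446 by limma, 0.48 as reported), 1.12 ± 0.46 in 12-month against 6-month DBA/2J without 6-month animal 5 (adjusted p = 1.00 by edgeR, 0.76 as reported) and a slope of 0.74 ± 0.31 without animal 1 (adjusted p = 0.984 by edgeR, 0.46 as reported). Over the animals left out, the log2 fold change of Lgals3 in 12-month against 6-month DBA/2J ran from 3.34 to 10.59, the highest without 6-month animal 5, where the 6-month group is at 0 and the value is no bound. Depth set the limit that 0 counts allow, 0.149 to 3.07 CPM over the retinas.

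The sign turned in 52 cases. With 1 animal left out it turned in 32 and held in 443, and in the other settings it turned in 20 and held in 284. None of the values that turned was called, and the cause was not tested. In 12-month DBA/2J against Gpnmb+, leaving out single animals gave log2 fold changes of -0.10 to 0.47 for Lgals9 and -0.56 to 0.49 for Lgals8, and in 6-month DBA/2J against Gpnmb+ -0.34 to 0.23 for Lgals9 and -0.60 to 0.044 for Lgals3bp. In the trend they gave -0.84 to 2.12 for Lgals3, -0.73 to 0.77 for Lgals8 and -0.83 to 0.42 for Lgals1. In mild DBA/2J against Gpnmb+ they gave -0.73 to 0.30 for Lgals9, -8.71 to 0.17 for Lgals3, -1.80 to 0.73 for Lgals8 and -2.15 to 1.05 for Lgals1, in the moderate comparison -0.15 to 0.43 for Lgals9 and -1.23 to 0.39 for Lgals8, and in the severe one -8.62 to 1.53 for Lgals3, -1.72 to 0.45 for Lgals8 and -0.30 to 0.64 for Lgals1.

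With the animal number as a replicate block, Lgals8 had 0.16 in 12-month DBA/2J against Gpnmb+, 2.92 in the trend, 0.15 in the moderate and 0.089 in the severe comparison, Lgals9 had 0.20 in 6-month DBA/2J against Gpnmb+, Lgals1 had -0.12 in the trend and -0.21 in the mild comparison, Lgals3 had -2.27 in the trend and Lgals3bp had 0.040 in the mild comparison. The block called no galectin gene. In the trend it joins the 2 sums of animal 1 and of animal 5, which come from the same animal, so the blocked slopes keep that pairing. Between groups, deviations of same-numbered animals had r of -0.046 to 0.088 with a median of 0.01. For animals of other numbers r was -0.072 to 0.065 with a median of -0.004. These values show no strong pairing by number and cannot exclude a weak one. With a random animal effect over retinas, Lgals8 had 0.47 in 12-month DBA/2J against Gpnmb+, and in 6-month DBA/2J against Gpnmb+ Lgals1 had 1.17, Lgals9 0.46 and Lgals3bp 0.80, while each retina as a replicate gave Lgals9 0.078. The slope of Lgals1 was -0.011 by DESeq2 and -0.011 with RLE scaling. Without the retinas of fewer than 10000 genes, Lgals1 had -0.12 in the mild and -0.11 in the severe comparison, Lgals3 had -0.18 in the severe one and Lgals9 had -0.021 in the moderate one.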
